A study of Homo sapiens with 6 samples.

Results

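The genes described here are the histone genes and the chromatin modifiers of ARPE-19 cells, a human cell line derived from retinal pigment epithelium (RPE), measured by RNA sequencing. Members were taken by gene symbol: a protein-coding gene counted when its name began with a stem for histones (HIST followed by a digit, H1F, H2AF, H3F), for high mobility group proteins (HMGA, HMGB, HMGN), or for families that write, erase or read chromatin marks or move nucleosomes (KMT, SETD, SMYD, EZH, EHMT, SUV, PRDM, KDM, KAT, HDAC, SIRT, SMARC, CHD, ARID, BRD, CBX, PHF, ING, DNMT, TET, MBD). This gave 93 of the 7758 genes in the table, or 93 of its 6740 protein-coding genes. Of these, 6 are histone genes and 87 are not. In 3 cases the stem matched by letters alone: KATNAL2 and KATNBL1 encode katanin-related proteins, which belong to the microtubule severing machinery, and BRD3OS is named for its place opposite BRD3. A Y-linked demethylase gene is counted among the members, and no value of it is given.

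Cells carried either a scramble hairpin (sh-Control) or a hairpin that silences METTL3 (sh-METTL3), and every library came from cells treated for 24 h with lipopolysaccharide (LPS), an inflammatory outer membrane component of Gram-negative bacteria, at 1 μg/ml. Hairpins were brought in with lentivirus, per the study's methods. There were 3 libraries per group, 6 in all. Nothing in the labels says that libraries of 1 group are separate cultures, so the p-values measure the spread between these libraries, which may be technical. No unstimulated library was analysed here, so LPS is shared by both groups and its effect cannot be read.

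DNA in the nucleus is wrapped around nucleosomes of the core histones H2A, H2B, H3 and H4, and linker histones (H1) bind where the DNA enters and leaves. Most core histone genes are active during DNA replication, lie in clusters, and give mRNAs that end in a stem-loop in place of a poly(A) tail, while replacement histones and several linker histones are made from ordinary polyadenylated mRNAs in resting cells as well. Enzymes add or remove methyl and acetyl groups on histone tails and DNA, reader proteins bind these marks, and ATP-dependent remodelers slide or evict nucleosomes.

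Values are scaled counts, which are the reads on a gene divided by a size factor for the library. Each library had between 10898434 and 17750052 reads on listed genes. The table lists only genes that had passed a test on these same libraries, so a share of lower or higher genes holds for the list and not for the transcriptome, and genes outside it were not analysed here. That choice of genes also fixes that the first principal component separates the groups. The second, with 3.36% of the variance, set sh-METTL3 replicate 3 apart. METTL3, the catalytic subunit of the enzyme that writes N6-methyladenosine into mRNA, had scaled counts of 1154, 1108 and 1091 in sh-Control. In sh-METTL3 the values were 966, 1001 and 765. The groups did not overlap, and the log2 fold change was -0.30 (SE 0.0965, adjusted p = 0.0108). METTL3 did not pass the threshold of 0.05 with RLE scaling in edgeR (adjusted p = 0.0881) or in DESeq2 (adjusted p = 0.107), and over all alternatives its adjusted p ranged from 0.00603 to 0.107. Without sh-METTL3 replicate 3, its lowest library, the log2 fold change was -0.18 (adjusted p = 0.0135). Of 11 RPE markers, 6 were listed. SERPINF1, PMEL and BEST1 were 87.9%, 71.4% and 69.3% lower in sh-METTL3, and KRT8, KRT18 and MITF were 2.07, 1.33 and 1.8 times as high. The summed scaled count of the 6 was 18748 to 20001 in sh-Control and 29908 to 33192 in sh-METTL3, most of it from the keratin genes KRT8 and KRT18. Without these it was 2419 to 2517 in sh-Control and 1359 to 1468 in sh-METTL3. RPE65, RLBP1, OTX2, TYRP1 and TTR, the other markers, were not analysed here. In bulk RNA, fewer cells of a type and less RNA per cell cannot be told apart.

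All 93 members passed the threshold (adjusted p under 0.05, Benjamini-Hochberg over the 7758 listed genes), where 99.9% of all listed genes did. In sh-METTL3, 33 members were higher, against a background of 47.6% of listed genes, and 60 were lower, against 52.2%. A doubling was seen in 6 members (background 17.5%) and a halving in 4 (background 13.2%). The groups did not overlap in 92 members (background 98.5%), the exception being CBX5. The median log2 fold change was -0.28 over the members and -0.21 over all listed genes. The share of members past a doubling or halving, 10.8%, was below the 30.7% of all listed genes. Among the 2521 listed genes whose mean level lay between the quartiles of the members' levels, 8.89% were past a doubling or halving and 62.4% were lower, close to the members' 10.8% and 64.5%. Both shares were thus near those of other genes of like level. Counts of lower genes for single roles stand in what follows beside the same shares, 52.2% over all listed genes and 62.4% at like level, and the roles hold few genes each.

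The median log2 ratio of the members to the sh-Control mean was -0.28, -0.26 and -0.27 in sh-METTL3 replicates 1, 2 and 3. Over all listed genes it was -0.16, -0.19 and -0.18. For 41 of the 93 members it was sh-METTL3 replicate 3 that lay nearest to the controls, against 26 for each of the other sh-METTL3 libraries. Scaling moved these values: RLE factors raised the median of all listed genes by 0.12 on the log2 scale, and 13 members (14%) that were lower in the limma fit then missed the threshold, beside 9.27% of all listed genes. In DESeq2 18 members (19.4%) did, beside 11.1%. This left 47 members lower with RLE factors, where 43% of all listed genes were lower and 47.7% higher, and 42 in DESeq2, where 41.2% were lower and 47.7% higher. The 33 higher members passed in both. None of the members changed direction under any setting, the smallest member change, that of CHD3 (0.17), being larger than that shift.

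**Figure D1:**
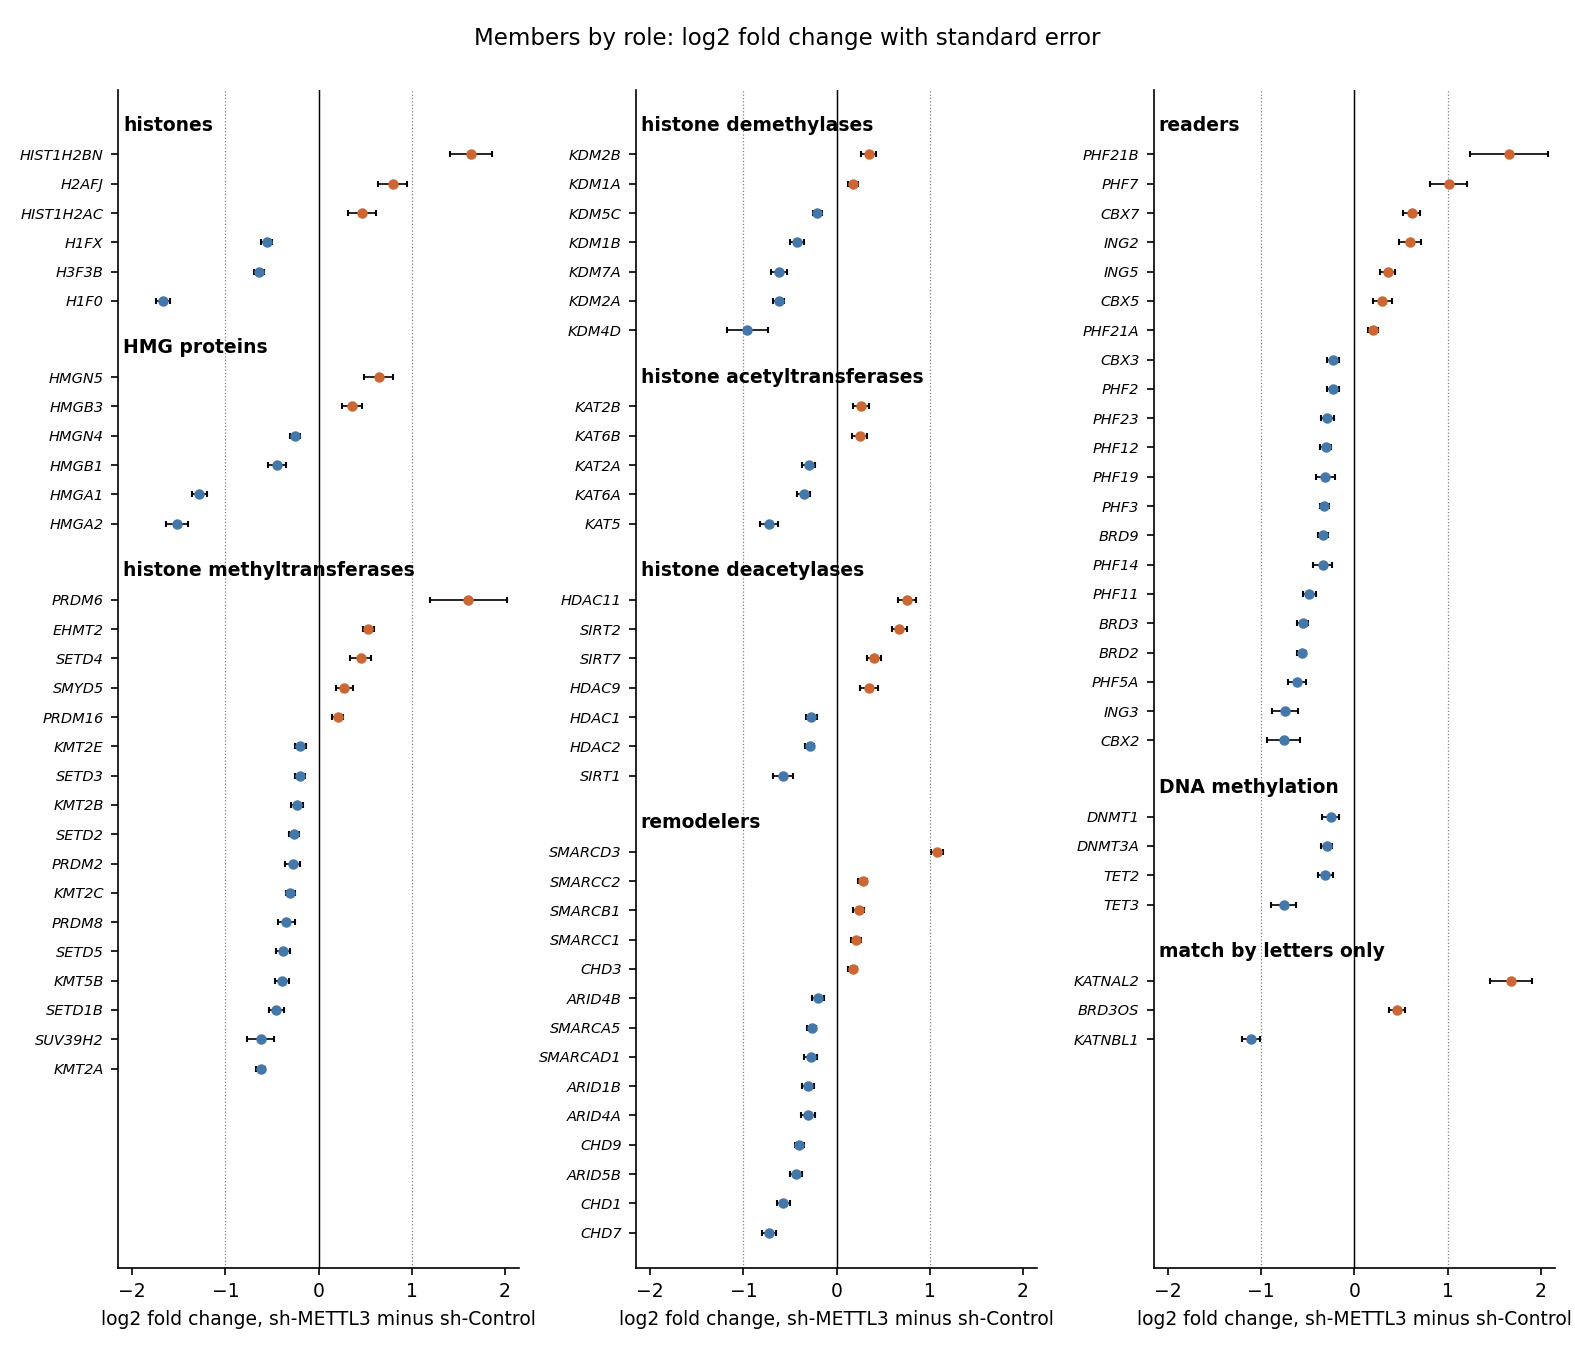
Log2 fold change of sh-METTL3 minus sh-Control (horizontal axis) for 90 members grouped by role, with the limma standard error as bars; orange points are higher in sh-METTL3, blue points lower, and dotted lines mark a doubling and a halving. Most points lie within the dotted lines, the 4 DNA methylation genes are all lower, and H1F0, HMGA1, HMGA2 and KATNBL1 lie beyond a halving.

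The 6 histone genes split by direction and by level. The linker histone genes H1F0 and H1FX and the replacement histone gene H3F3B fell, and they were the histone members with the highest levels. H2AFJ and the cluster genes HIST1H2AC and HIST1H2BN rose, from levels at least an order of magnitude lower. In sh-Control the level per kb of exonic length was 3832 for H1F0, 2228 for H1FX and 1721 for H3F3B. It was 122 for HIST1H2AC, 73.4 for H2AFJ and 5.85 for HIST1H2BN. The study's methods name mRNA sequencing, and how far mRNAs without a poly(A) tail were captured was not tested. Levels and shares of the cluster genes beside the other histone genes hold for these libraries only with that limit.

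H1F0 (ENSG00000189060, chr22:37805093-37807436, + strand, GRCh38) encodes the linker histone H1.0, a replication-independent H1 that builds up in differentiated and slowly dividing cells. Its scaled counts were 8449, 9287 and 9212 in sh-Control and 3096, 2555 and 2817 in sh-METTL3. Every sh-METTL3 library was below every control, and the mean was 68.6% lower. The log2 fold change was -1.67 (SE 0.0731, adjusted p = 5.87e-08), and it was the largest fall among the members. H1FX (ENSG00000184897, chr3:129314771-129316277, - strand) encodes H1X, another linker histone that is made outside the replication program. Counts of 3366, 3559.8 and 3147 in sh-Control compared with 2296, 2276 and 2254 in sh-METTL3. The sh-METTL3 libraries lay close together and below the controls, with a log2 fold change of -0.56 (SE 0.0566, adjusted p = 1.21e-05). The ratio of H1F0 to H1FX was 2.68 ± 0.218 in sh-Control and 1.24 ± 0.113 in sh-METTL3 (SD, n = 3), without overlap. The sum of both genes went from 12340 ± 517 to 5098 ± 282 scaled counts. H1FX shares 345 exonic bases, 22.9% of its exonic length, with H1FX-AS1 on the opposite strand; the strand setting of the counting is not given in the sources used here, so reads on those bases cannot be assigned to either gene.

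H3F3B (ENSG00000132475, chr17:75776434-75785893, - strand) is one of the genes for H3.3, the replacement H3 that is deposited through the cell cycle at active genes and at repeats. Scaled counts were 10137, 10802 and 10738 in sh-Control and 6997, 6894 and 6418 in sh-METTL3. The groups were well apart, with a mean 35.9% lower in sh-METTL3, a log2 fold change of -0.64 (SE 0.0556, adjusted p = 4.23e-06). H3F3B held the greatest share of the counts on the 6 histone genes in either group, 45.2% ± 0.446 in sh-Control and 53.4% ± 1.2 in sh-METTL3, while the share of H1F0 went from 38.4% ± 0.736 to 22.3% ± 1.71 (SD, n = 3). The summed scaled count of the 6 genes was 23381 ± 872 in sh-Control and 12680 ± 495 in sh-METTL3.

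HIST1H2BN (ENSG00000233822, chr6:27837760-27865798, + strand) encodes a replication-dependent H2B and lies in the large histone cluster of chromosome 6. It was read from few fragments: 29.5, 42.3 and 24.3 scaled counts in sh-Control and 99.8, 94.1 and 103 in sh-METTL3. All sh-METTL3 libraries were above all controls, at 3.09 times their mean, with a log2 fold change of 1.63 (SE 0.228, adjusted p = 1.05e-04). HIST1H2AC (ENSG00000180573, chr6:26124145-26139116, + strand), a replication-dependent H2A gene of the same chromosome, had 236, 210.4 and 163 in sh-Control and 257, 269 and 310.2 in sh-METTL3. The highest control and the lowest sh-METTL3 library were close, and the log2 fold change was 0.47 (SE 0.15, adjusted p = 0.0115). H2AFJ (ENSG00000246705, chr12:14774383-14778002, + strand) encodes H2A.J, an H2A variant from a gene outside the clusters that builds up in senescent cells. Its values of 221, 257 and 262 in sh-Control compared with 466, 504 and 331 in sh-METTL3. The libraries of sh-METTL3 were higher but spread out, replicate 3 being nearest to the controls, with a log2 fold change of 0.80 (SE 0.154, adjusted p = 8.11e-04). The 3 rising genes together took a small part of the histone counts: in sh-METTL3 H2AFJ held 3.41% ± 0.654, HIST1H2AC 2.21% ± 0.299 and HIST1H2BN 0.782% ± 0.0526, against 1.05% ± 0.0639, 0.871% ± 0.181 and 0.137% ± 0.0362 in sh-Control.

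**Figure D2:**
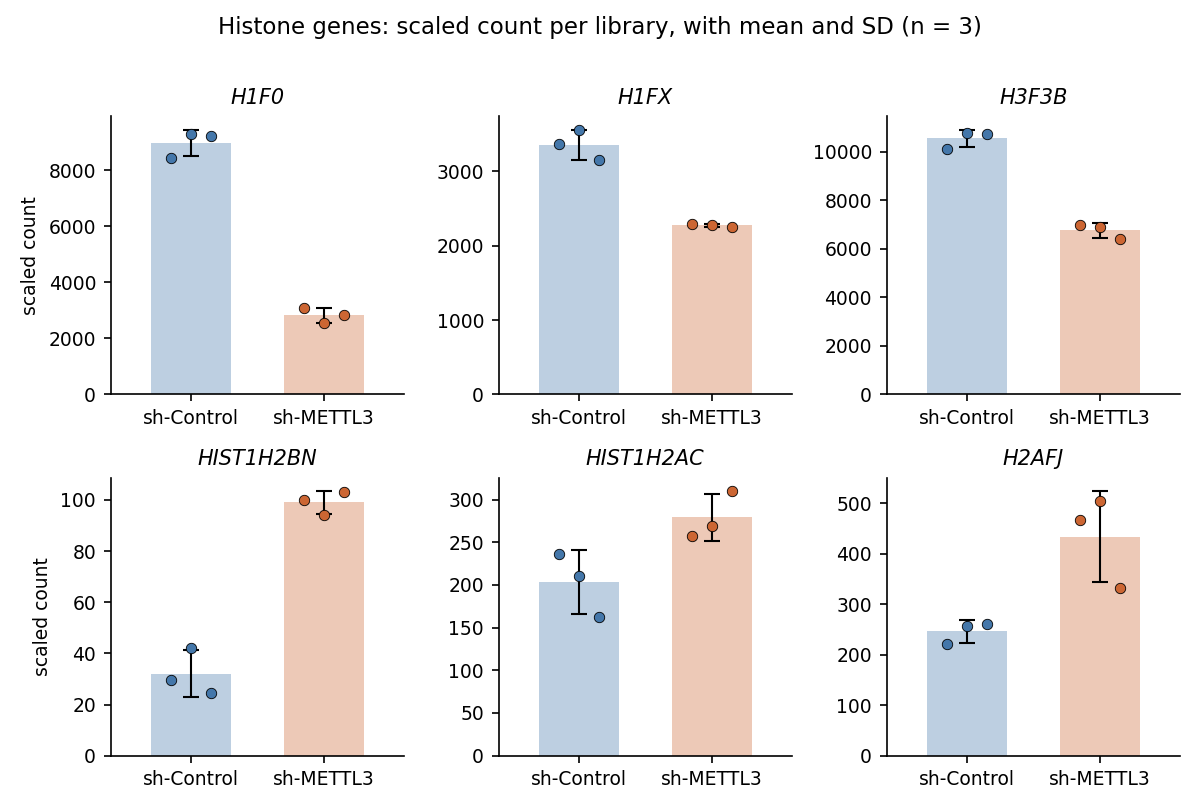
Scaled count of each histone gene in every library (points), with the group mean (bar) and SD (error bar, n = 3); every vertical axis starts at 0 and each panel has its own scale. H1F0, H1FX and H3F3B are lower in all 3 sh-METTL3 libraries, and HIST1H2BN, HIST1H2AC and H2AFJ are higher in all 3.

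Few histone genes of the annotation were in the table. Of 87 protein-coding histone genes in GENCODE release 29, 6 (6.9%) were listed, where 33.8% of all 19969 protein-coding genes and 32.5% of the 286 genes that the naming rule matches were. Of the 71 genes named HIST, 2 (2.82%) were listed, and of the 16 histone genes outside the clusters, 4 (25%). The level and change of an unlisted histone gene are not known here. The capture of mRNAs without a poly(A) tail was not tested, so the share of HIST genes listed is no measure of their expression. The listed cluster genes have annotated transcripts that run past the histone stem-loop. The stem-loop is shown because it marks the 3′ end of replication-dependent histone mRNA; the capitals are the arms that pair, 5′ to 3′ on the GRCh38 + strand.
HIST1H2AC-202, chr6:26124669-26124684: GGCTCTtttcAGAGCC
HIST1H2BN-204, chr6:27839090-27839105: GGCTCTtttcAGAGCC
HIST1H2BN-201, chr6:27865778-27865793: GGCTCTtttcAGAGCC
In HIST1H2AC-202 the transcript went on for 1114 bases after the stem-loop, in HIST1H2BN-204 for 377 bases and in HIST1H2BN-201 for 5 bases. The transcripts HIST1H2AC-203 and HIST1H2BN-203 hold no such sequence, nor do the transcripts of H1F0, H1FX, H2AFJ and H3F3B. The search matched the histone stem-loop consensus, on the transcript strand, in 34 of 19669 genes with a protein-coding transcript (0.173%), in 31 of 71 HIST genes (43.7%) and in 1 of 16 histone genes not named HIST (6.25%). Of the annotated genes that the rule matches outside the histones, 0 of 193 held it, and 0 of 6 matched by letters alone. The table gives values per gene, so which transcript carried the reads is unknown. Histone genes are near copies of each other, and HIST1H2BN shares 7.25% of its exonic length with HIST1H2AK and HIST1H2AL, so the reads of cluster genes are uncertain.

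Promoter sequences were read from RefSeq (GRCh38.p14) for 75 of the 93 members, including 5 of the 6 histone genes. Printed below are HIST1H2AC, which rose, and H3F3B, which fell, each with every searched motif present. HIST1H2BN, the histone gene with the largest rise, and the linker histone gene H1FX are printed too. Each runs 5′ to 3′ on the gene's strand, from 250 bases before the start to 50 after it. Capitals mark TATAAA or TTTATA (the TATA box letters), CCAAT or ATTGG (the CCAAT box) and ATTTGCAT or ATGCAAAT (the octamer), so both strands were searched.
HIST1H2BN, chr6:27838319-27838618, + strand: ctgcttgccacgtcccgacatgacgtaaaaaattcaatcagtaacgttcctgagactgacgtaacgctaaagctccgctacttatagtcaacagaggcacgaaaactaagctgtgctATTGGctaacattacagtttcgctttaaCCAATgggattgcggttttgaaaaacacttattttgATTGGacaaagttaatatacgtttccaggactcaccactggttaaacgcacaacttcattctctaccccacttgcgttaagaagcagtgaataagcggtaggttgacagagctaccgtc
HIST1H2AC, chr6:26123922-26124221, + strand: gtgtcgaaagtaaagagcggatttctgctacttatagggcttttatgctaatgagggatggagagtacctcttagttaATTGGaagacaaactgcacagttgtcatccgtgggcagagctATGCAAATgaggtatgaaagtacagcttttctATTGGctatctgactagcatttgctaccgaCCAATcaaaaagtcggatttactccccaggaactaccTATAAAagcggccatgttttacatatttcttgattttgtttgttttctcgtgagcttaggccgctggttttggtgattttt
H3F3B, chr17:75779730-75780029, - strand: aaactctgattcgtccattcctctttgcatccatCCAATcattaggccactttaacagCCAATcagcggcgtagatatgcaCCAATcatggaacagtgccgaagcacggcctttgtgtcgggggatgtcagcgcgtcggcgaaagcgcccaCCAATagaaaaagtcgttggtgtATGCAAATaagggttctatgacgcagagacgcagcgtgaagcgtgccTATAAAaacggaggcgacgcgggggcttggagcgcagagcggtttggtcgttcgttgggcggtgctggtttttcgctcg
H1FX, chr3:129316237-129316536, - strand: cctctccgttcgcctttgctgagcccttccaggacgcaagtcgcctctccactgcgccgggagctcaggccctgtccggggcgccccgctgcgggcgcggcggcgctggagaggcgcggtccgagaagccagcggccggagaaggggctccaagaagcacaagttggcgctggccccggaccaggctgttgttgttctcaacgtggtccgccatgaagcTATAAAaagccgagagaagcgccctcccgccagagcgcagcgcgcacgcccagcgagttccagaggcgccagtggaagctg
TATA box letters stood in 3 of the 5 histone promoters and in 12% of all 27305 promoters. The first letter lay 31 bases before the start in HIST1H2AC and H1FX and 29 bases before it in H3F3B. CCAAT box letters were found in 4 of the 5, with 4 copies in H3F3B and 3 each in HIST1H2BN, HIST1H2AC and H2AFJ, against 35.7% of all promoters with any. The octamer stood in HIST1H2AC and H3F3B and in 1.8% of all promoters. All 3 motifs thus stood both in HIST1H2AC, which rose, and in H3F3B, which fell.

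High mobility group (HMG) proteins are abundant architectural proteins that bend DNA or bind nucleosomes, and 6 of their genes were listed, 4 lower (66.7%) and 2 higher. HMGA1, which binds AT-rich DNA and is high in proliferating and transformed cells, had the highest level per kb of all members, 14347 in sh-Control and 5885 in sh-METTL3. Its scaled counts were 36315, 34835 and 29004 in sh-Control and 13834, 13393 and 13859 in sh-METTL3. The sh-METTL3 libraries agreed closely at less than any control, 59% lower on average, with a log2 fold change of -1.28 (SE 0.0833, adjusted p = 6.76e-07). For HMGA2, its paralog and a known oncofetal gene, counts were 3712, 3585 and 3586 in sh-Control and 1162, 1094 and 1605 in sh-METTL3. Replicate 3 of sh-METTL3 was the highest of its group and still far below the controls, the log2 fold change being -1.52 (SE 0.119, adjusted p = 2.16e-06). The ratio of HMGA1 to HMGA2 was 9.2 ± 0.96 in sh-Control and 10.9 ± 1.99 in sh-METTL3, and the ranges overlapped.

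HMGB1, a chromatin protein that also acts as an alarm signal outside cells, went from 5103, 5102 and 5479 in sh-Control to 4240.3, 4107 and 3237 in sh-METTL3, with a log2 fold change of -0.45 (SE 0.0923). HMGB3, a related gene of the X chromosome, went the other way, from 433, 475 and 501 to 677, 602 and 533 (log2 change 0.36, SE 0.102). The ratio of HMGB1 to HMGB3 was 11.2 ± 0.55 in sh-Control and 6.39 ± 0.391 in sh-METTL3. HMGB1 has processed pseudogenes that are close copies of its mRNA, so its reads may be split among them. The nucleosome-binding genes also moved apart: HMGN4 had a log2 fold change of -0.25 (SE 0.0557) and HMGN5 one of 0.64 (SE 0.159). HMGN4 missed the threshold with RLE factors and in DESeq2.

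**Figure D3:**
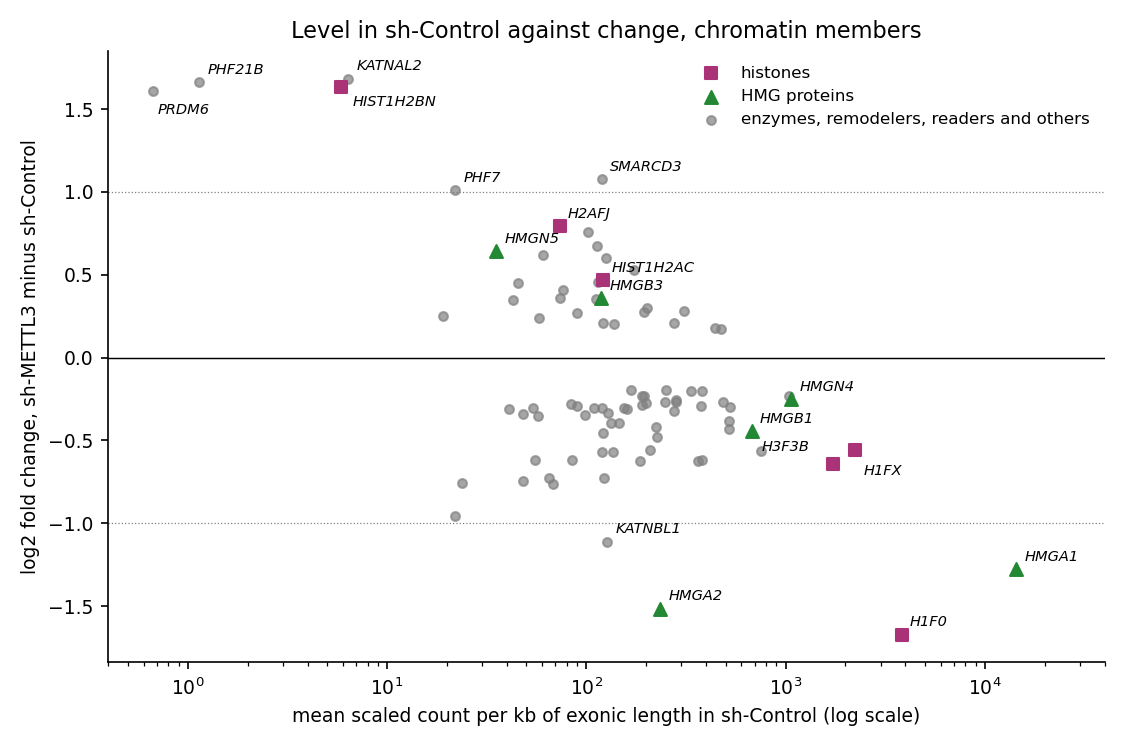
Mean scaled count per kb of exonic length in sh-Control (horizontal axis, log scale) against the log2 fold change of sh-METTL3 minus sh-Control (vertical axis) for 90 members; squares are histones, triangles HMG proteins and circles the other members, and dotted lines mark a doubling and a halving. H1F0 and HMGA1, with levels of 3832 and 14347 per kb, lie at the lower right, and the members beyond a doubling lie at levels under 120 per kb.

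Of 18 histone methyltransferase genes and relatives, 13 were lower (72.2%, against 62.4% at like level) and 5 higher. The 4 listed members of the KMT2 (MLL) family, most of whose proteins methylate H3 lysine 4 at promoters and enhancers, were lower. KMT2A, the founding member, had scaled counts of 5929, 5828 and 5768 in sh-Control and 3779, 3708 and 3888 in sh-METTL3. The spread within each group was small next to the gap, and the log2 fold change was -0.62 (SE 0.0474, adjusted p = 1.76e-06). The changes of KMT2C (log2 change -0.30, SE 0.0488), KMT2B (log2 change -0.23, SE 0.0608) and KMT2E (log2 change -0.20, SE 0.0597) were smaller, and KMT2B and KMT2E missed the threshold with RLE factors and in DESeq2. Among the SETD genes, SETD5 had the highest level per kb of the methyltransferase group (522 in sh-Control). Its counts of 5462, 5879 and 5586 in sh-Control compared with 4866, 4302 and 3869 in sh-METTL3, a log2 fold change of -0.38 (SE 0.078). SETD1B, an H3 lysine 4 methyltransferase (log2 change -0.45, SE 0.0832), SETD2, which trimethylates H3 lysine 36 (log2 change -0.27, SE 0.0508), and SETD3, an actin histidine methyltransferase (log2 change -0.20, SE 0.0561), were lower, and SETD4 was higher (log2 change 0.45, SE 0.109). SETD3 missed the threshold with RLE factors and in DESeq2.

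The enzymes of H3 lysine 9 methylation divided. EHMT2 (G9a), which mono- and dimethylates this residue in euchromatin, went from 1240.4, 1342 and 1231 in sh-Control to 1889, 1818 and 1803 in sh-METTL3. Every sh-METTL3 library was higher, and the log2 fold change was 0.53 (SE 0.0579, adjusted p = 1.99e-05). SUV39H2, which trimethylates it in heterochromatin, went from 304, 308 and 293 to 205, 232 and 158, a log2 fold change of -0.62 (SE 0.144, adjusted p = 0.00223). KMT5B, an H4 lysine 20 methyltransferase, was lower (log2 change -0.39, SE 0.0769), and SMYD5 was higher (log2 change 0.27, SE 0.0922). SMYD5 missed the threshold when sh-Control replicate 1 or sh-METTL3 replicate 1 was left out. Of the PRDM genes, which encode zinc finger proteins with a SET-related domain, PRDM8 (log2 change -0.35, SE 0.0917) and PRDM2 (log2 change -0.28, SE 0.0803) were lower and PRDM16 (log2 change 0.21, SE 0.0597) was higher. PRDM2 missed the threshold with RLE factors and in DESeq2, and PRDM8 in DESeq2. PRDM6 more than doubled (log2 change 1.61, SE 0.41) on 6.26 scaled counts in sh-Control and 19.5 in sh-METTL3, so few reads stand behind it.

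Of 8 histone demethylase genes, 5 were lower (62.5%, as at like level with 62.4%) and 3 higher, and none reached a doubling or halving. KDM1A (LSD1), which removes methyl groups from H3 lysine 4 within corepressor complexes, had the highest level per kb of the group (444 in sh-Control). Its counts were 2351, 2475 and 2413 in sh-Control and 2739, 2805 and 2650.4 in sh-METTL3, a small rise of 0.18 (SE 0.0507) on the log2 scale. Its paralog KDM1B went from 1158, 1365 and 1215 to 947, 874 and 967 (log2 change -0.42, SE 0.0763). The ratio of KDM1A to KDM1B was 1.94 ± 0.115 in sh-Control and 2.95 ± 0.24 in sh-METTL3 (SD, n = 3). The H3 lysine 36 demethylase paralogs KDM2A and KDM2B also moved apart: KDM2A went from 3796, 3844 and 3648 to 2397, 2285 and 2667 (log2 change -0.62, SE 0.0636) and KDM2B from 599, 585 and 579 to 683, 738 and 826 (log2 change 0.35, SE 0.0828). Their ratio was 6.4 ± 0.145 in sh-Control and 3.28 ± 0.212 in sh-METTL3. KDM7A (log2 change -0.62, SE 0.0872), KDM5C (log2 change -0.20, SE 0.0523) and the weakly expressed KDM4D (log2 change -0.96, SE 0.22, 65.4 scaled counts in sh-Control) were lower. KDM5C missed the threshold with RLE factors and in DESeq2.

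Of the 5 acetyltransferase genes, 3 were lower (60%, against 62.4% at like level) and 2 higher. KAT5 (TIP60), the catalytic subunit of the NuA4 complex, had the largest change of these, from 489, 461 and 429 in sh-Control to 275, 300.3 and 258 in sh-METTL3. The groups were apart, with a log2 fold change of -0.73 (SE 0.0993, adjusted p = 8.97e-05). KAT2A (GCN5), the acetyltransferase gene with the highest level per kb (527 in sh-Control), was lower at -0.30 (SE 0.0655), and its paralog KAT2B (PCAF) was higher at 0.27 (SE 0.0856). KAT6A was lower at -0.35 (SE 0.0674), and its paralog KAT6B was higher at 0.25 (SE 0.0783). The ratio of KAT2A to KAT2B was 3.92 ± 0.485 in sh-Control and 2.63 ± 0.148 in sh-METTL3, and that of KAT6A to KAT6B was 2.22 ± 0.168 and 1.46 ± 0.0126.

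Of 7 deacetylase genes, 4 were higher and 3 lower (42.9%, against 52.2% of all listed genes and 62.4% at like level). Their median log2 fold change was 0.35, beside -0.21 over all listed genes. The class I enzymes HDAC1 and HDAC2, catalytic subunits of the SIN3, NuRD and CoREST corepressor complexes, were lower. HDAC1 had 1993, 1923 and 1889 scaled counts in sh-Control and 1668, 1543 and 1607 in sh-METTL3 (log2 change -0.27, SE 0.0551), and HDAC2 had 3029, 2858 and 2965 and 2438, 2483 and 2329 (log2 change -0.29, SE 0.0518). HDAC1 missed the threshold in DESeq2. HDAC11, the class IV enzyme, rose from 468, 598 and 557 to 894, 875 and 963. All sh-METTL3 libraries were above the controls, with a log2 fold change of 0.76 (SE 0.0954, adjusted p = 5.24e-05). HDAC9, a class IIa gene, rose less (log2 change 0.35, SE 0.0974), and its sh-METTL3 replicate 3, at 1998, lay near the highest control, at 1906. The NAD-dependent sirtuins also divided. SIRT1, mainly nuclear, went from 624, 517 and 488 to 386, 374 and 330.3 (log2 change -0.57, SE 0.111). SIRT2, mainly cytoplasmic, went from 725, 752 and 630.0 to 1145, 1144 and 1064 (log2 change 0.67, SE 0.0797). The ratio of SIRT1 to SIRT2 was 0.774 ± 0.0866 in sh-Control and 0.325 ± 0.0135 in sh-METTL3. SIRT7, a nucleolar sirtuin, was higher (log2 change 0.41, SE 0.0742). The median log2 ratio of the deacetylase genes to the sh-Control mean was 0.35 and 0.43 in sh-METTL3 replicates 1 and 2 and 0.087 in replicate 3.

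Of 14 genes grouped by symbol as remodelers, 9 were lower (64.3%, near the 62.4% at like level) and 5 higher. SMARCD3 (BAF60C), a subunit of the BAF (SWI/SNF) complex with a known part in heart and muscle development, rose most, from 604, 646 and 619.7 in sh-Control to 1292, 1336 and 1317 in sh-METTL3. The replicates were tight in either group, the mean was 2.11 times as high, and the log2 fold change was 1.08 (SE 0.0614, adjusted p = 2.88e-07). The other listed SMARC subunits of the complex rose slightly: SMARCC2 by 0.28 (SE 0.0481), SMARCB1 by 0.24 (SE 0.0564) and SMARCC1 by 0.21 (SE 0.0493) on the log2 scale. ARID1B, the DNA-binding subunit, was lower (log2 change -0.30, SE 0.0655), as was BRD9 of the non-canonical complex (log2 change -0.34, SE 0.0584). Listed BAF subunits that the rule does not reach were mostly lower. These were DPF2 (log2 change -0.68, SE 0.0528), BCL7A (log2 change -0.54, SE 0.104), SS18 (log2 change -0.36, SE 0.0515) and ACTL6A (log2 change -0.36, SE 0.0953), while BCL7C was higher (log2 change 0.59, SE 0.0799). SMARCA5, the ISWI ATPase, went from 2373, 2338 and 2409.7 to 1955, 1987 and 1973 (log2 change -0.27, SE 0.0483), and SMARCAD1 was lower (log2 change -0.28, SE 0.0707). Of the CHD ATPases, CHD7 (log2 change -0.73, SE 0.0741), CHD1 (log2 change -0.57, SE 0.0695) and CHD9 (log2 change -0.40, SE 0.0518) were lower, and CHD3 of the NuRD complex was higher (log2 change 0.17, SE 0.0528). CHD7, mutated in CHARGE syndrome, went from 1133, 1019 and 1143 to 648, 635 and 705. All 4 ARID genes were lower, among them ARID5B, which had the highest level per kb of the group (520.1 in sh-Control) and a log2 fold change of -0.43 (SE 0.0648), and the SIN3 complex genes ARID4A (log2 change -0.30, SE 0.0745) and ARID4B (log2 change -0.20, SE 0.0668). SMARCAD1 and ARID4B missed the threshold with RLE factors and in DESeq2, and ARID4A in DESeq2; ARID4B also missed it without sh-Control replicate 3.

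Of 22 reader genes, 15 were lower (68.2%, near the 62.4% at like level) and 7 higher. The BET genes BRD2 and BRD3, whose bromodomain proteins bind acetylated histones and recruit the elongation machinery, were lower by similar amounts. BRD2 had scaled counts of 5709, 5547 and 5387 in sh-Control and 3622, 3760.4 and 3855 in sh-METTL3. BRD3 had 1472, 1445 and 1379.7 in sh-Control and 925, 1004 and 993 in sh-METTL3. In each the groups were clearly separate, with log2 fold changes of -0.57 (SE 0.0504) for BRD2 and -0.56 (SE 0.0611) for BRD3 and adjusted p-values of 5.09e-06 and 2.10e-05 by limma. BRD3OS, whose span overlaps that of BRD3 on the opposite strand, rose from 697, 659 and 697 to 858, 894 and 1079 (log2 change 0.46, SE 0.09). As the strand setting of the counting is not given, reads on any bases that both genes share cannot be assigned to either.

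The chromobox genes moved both ways. CBX2, a Polycomb (PRC1) subunit, went from 139.6, 151 and 116 to 68.1, 92.8 and 78.4 (log2 change -0.76, SE 0.177), and CBX7, which takes its place in other forms of the complex, from 483, 454 and 419.7 to 729, 732 and 623 (log2 change 0.62, SE 0.0925). The ratio of CBX2 to CBX7 was 0.299 ± 0.0296 in sh-Control and 0.115 ± 0.019 in sh-METTL3. Of the heterochromatin protein 1 genes, CBX3, with the highest level per kb of the readers (1046 in sh-Control), was lower (log2 change -0.23, SE 0.0661) and missed the threshold with RLE factors and in DESeq2. CBX5 had 3057, 3004 and 3087 in sh-Control and 4227, 4072 and 3083 in sh-METTL3. Its groups overlapped because sh-METTL3 replicate 3 fell within the range of the controls, and the log2 fold change of 0.30 (SE 0.102, adjusted p = 0.0147) missed the threshold without sh-Control replicate 2, sh-METTL3 replicate 1 or sh-METTL3 replicate 2.

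Of 11 PHF genes, 8 were lower (72.7%) and 3 higher. PHF7, an E3 ligase gene best known from the testis, doubled, from 53.4, 85.5 and 82.3 to 141, 142 and 158 (log2 change 1.01, SE 0.198). PHF21B also rose past a doubling (log2 change 1.66, SE 0.418), on 6.58 and 20.8 mean scaled counts, and PHF21A, part of the LSD1 complex, rose slightly (log2 change 0.20, SE 0.0532). PHF5A, a subunit of the SF3b splicing complex rather than a histone reader, went from 486, 448 and 478 to 327, 277 and 317 (log2 change -0.62, SE 0.0966). PHF11 (log2 change -0.48, SE 0.0696), PHF14 (log2 change -0.34, SE 0.102), PHF3 (log2 change -0.32, SE 0.0525), PHF19 (log2 change -0.31, SE 0.0984), PHF12 (log2 change -0.31, SE 0.0612), PHF23 (log2 change -0.29, SE 0.07) and PHF2 (log2 change -0.23, SE 0.0646) were lower. PHF14, PHF19 and PHF2 missed the threshold with RLE factors and in DESeq2, PHF23 in DESeq2, and PHF19 also without sh-Control replicate 2. PHF19 was at 962, 901 and 744 in sh-METTL3, replicate 3 being the lowest, and its lowest control was at 1006. Of the ING tumour suppressor genes, which encode readers of H3 lysine 4 methylation, ING2 (log2 change 0.60, SE 0.116) and ING5 (log2 change 0.36, SE 0.0793) were higher. ING3, a NuA4 subunit like KAT5, was lower, from 282, 208 and 262 to 149, 138 and 157 (log2 change -0.75, SE 0.141).

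The 4 listed DNA methylation genes were lower, where 52.2% of all listed genes and 62.4% at like level were, and DNMT1 and TET2 missed the threshold under some settings. TET3, which oxidises methylated cytosine, changed most, from 956, 819 and 731 in sh-Control to 447, 442 and 595 in sh-METTL3. The libraries were apart, with a log2 fold change of -0.76 (SE 0.131, adjusted p = 4.03e-04). The changes of TET2 (log2 change -0.31, SE 0.0791), the de novo methyltransferase gene DNMT3A (log2 change -0.30, SE 0.0588) and the maintenance methyltransferase gene DNMT1 (log2 change -0.25, SE 0.093) were smaller. DNMT1 had counts of 2916, 2857 and 2560.2 in sh-Control and 2509, 2521 and 1986 in sh-METTL3, with an adjusted p of 0.0212. The third sh-METTL3 library was far below the others of its group, which lay just below the lowest control. DNMT1 missed the threshold with RLE factors, in DESeq2, with 25000 tests in the adjustment, and without sh-Control replicate 1 or 2, over an adjusted p of 0.00321 to 0.199. TET2 missed it in DESeq2. Of the genes that matched by letters only, KATNAL2 went from 26.3, 25 and 40.2 to 97, 106 and 91.8 (log2 change 1.68, SE 0.225) and KATNBL1 from 873, 871 and 1049.7 to 418, 474 and 399 (log2 change -1.11, SE 0.0988).

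**Figure D4:**
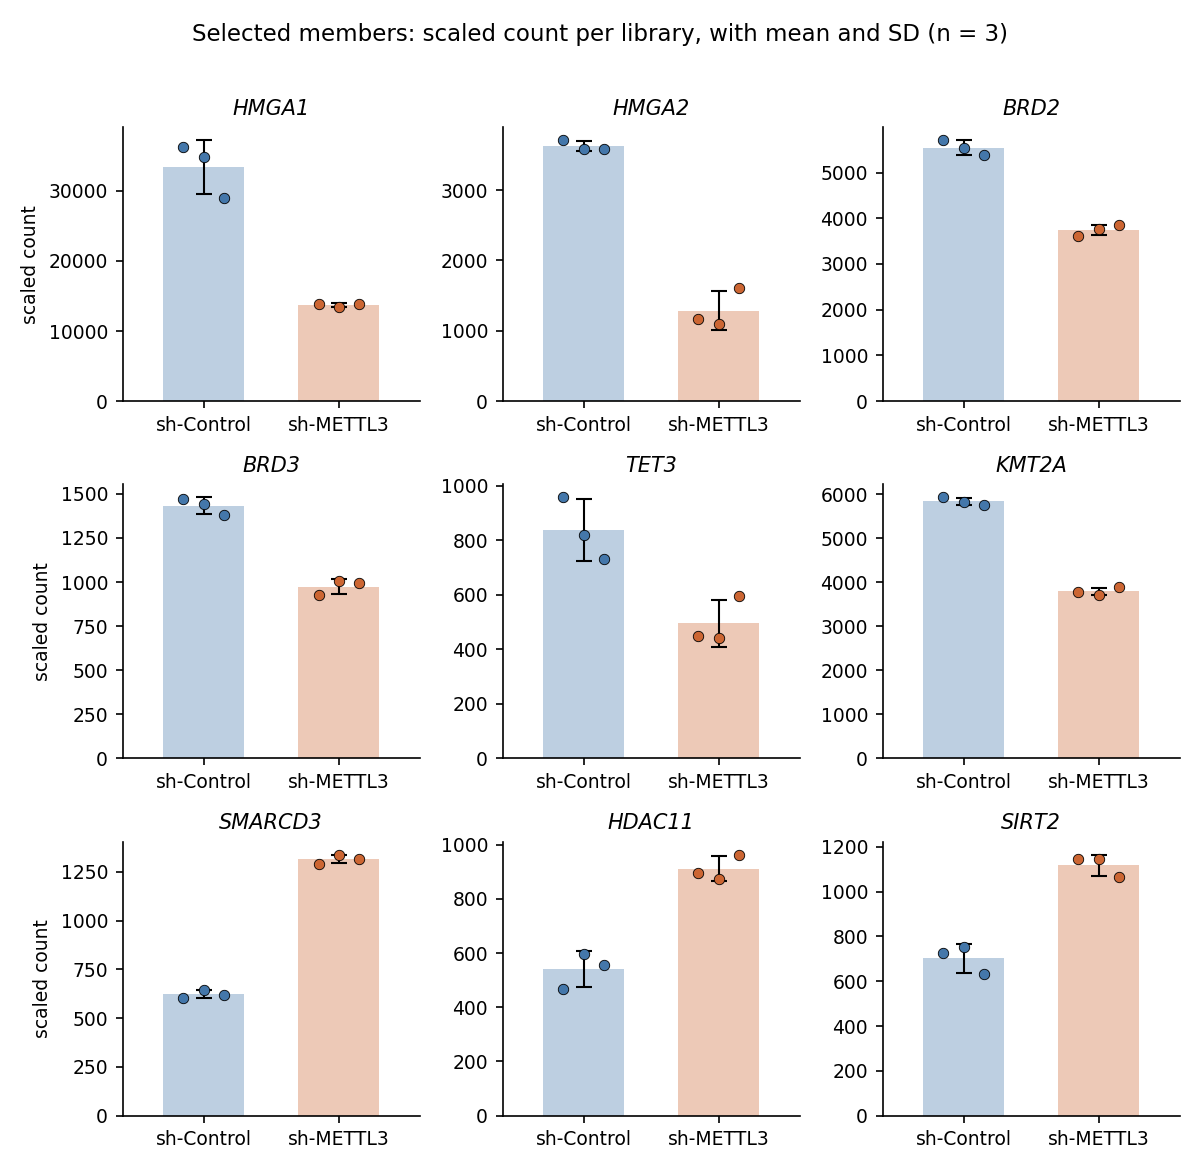
Scaled count per library (points) of 9 non-histone members, with the group mean (bar) and SD (error bar, n = 3); every vertical axis starts at 0 and each panel has its own scale. HMGA1, HMGA2, BRD2, BRD3, TET3 and KMT2A are lower in every sh-METTL3 library, and SMARCD3, HDAC11 and SIRT2 are higher in every one.

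A few members lay among listed genes that moved together, in the same share as other listed genes. Among the nearest 20 listed genes on each side along the chromosome, at least 80% were lower for 6 members (6.45%), beside 6.42% of all listed genes: KAT5 (87.5%), KMT5B (85%), KDM2A (95%), KMT2A (95%) and KDM4D (97.5%) on chromosome 11 and KATNBL1 (95%) on chromosome 15. All of these were lower, and their median was -0.67 on the log2 scale. Over the whole list 498 genes had such neighbours, and 90.2% of them were lower, with a median of -0.79. For the other 87 members, the median was -0.27, with 33 higher and 54 lower. Whether a change of a chromosome region took part in the values of those 6 members was not tested.

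**Figure D5:**
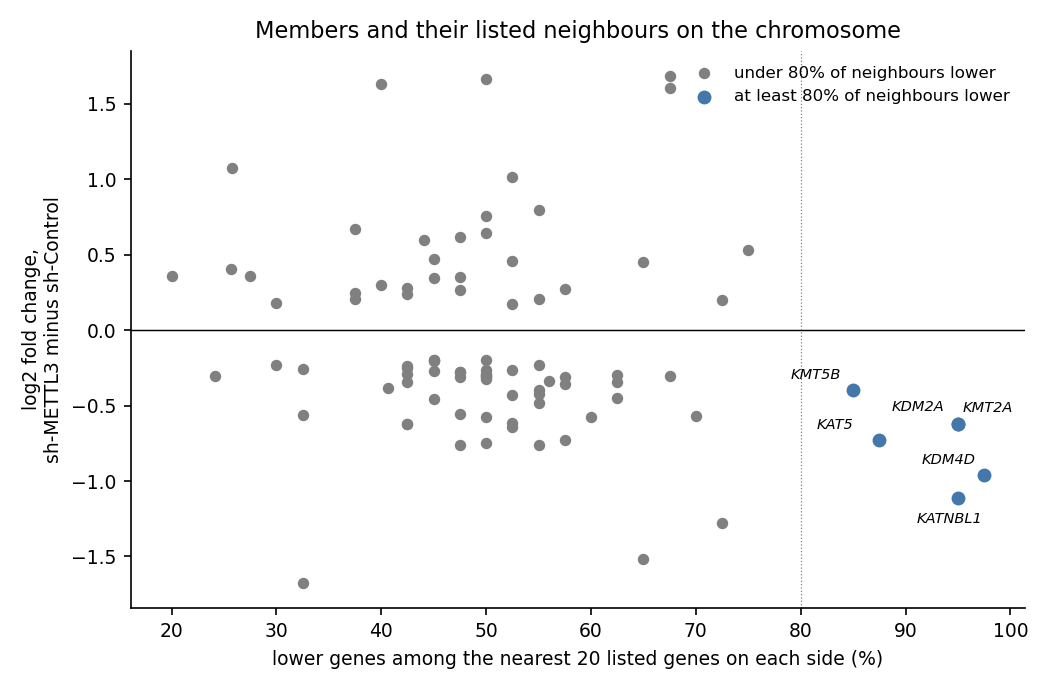
Share of lower genes among the nearest 20 listed genes on each side of a member along its chromosome (horizontal axis, percent) against its log2 fold change (vertical axis) for 90 members. Blue points, at 80% or more, are KAT5, KMT5B, KDM2A, KMT2A, KDM4D and KATNBL1, and all lie below 0, while H1F0 lies below 0 with 32.5% of its neighbours lower.

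Chromatin factors whose names the rule does not reach, such as partners in the same complexes, were mostly lower. Of a list of 205, 97 were in the table, 14 higher and 83 lower (85.6%), beside 52.2% lower over all listed genes and 62.2% over the 2574 listed genes at levels between the quartiles of the 97. The median was -0.36 on the log2 scale, beside -0.21 over all listed genes and -0.28 over those of like level. The counts of the smaller lists that follow stand beside the same shares. These lists were chosen with earlier results of these data known. All their counts come from the limma fit, and RLE factors raised the median of all listed genes by 0.12 on the log2 scale. Counts for the lists with RLE factors or in DESeq2 are not given here. Of the 97, 5 had at least 80% of their 40 nearest listed genes lower: NPAT (87.5%), EED (85%), DPF2 (85%) and RSF1 (82.5%) on chromosome 11 and INO80 (100%) on chromosome 15. All 5 were lower, with a median of -0.76, and among the other 92 genes 14 were higher and 78 lower (84.8%). The part of a chromosome region in these values was not tested. Of the histone chaperone and histone mRNA processing genes, 18 of 19 (94.7%) were lower. SLBP, which binds the histone stem-loop, had a log2 fold change of -0.36 (SE 0.0626), NPAT, the coactivator of cluster histone genes, -0.84 (SE 0.0926), and ZNF473, a protein of the histone mRNA 3′ end processing machinery, -0.59 (SE 0.116). NPM2, a histone chaperone known from oocytes, was the exception in size, at 191, 179 and 163 in sh-Control and 9.33, 6.44 and 5.6 in sh-METTL3 (log2 change -4.48, SE 0.241). CABIN1, of the H3.3 chaperone complex HIRA, rose (log2 change 0.62, SE 0.0684).

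Polycomb partners were lower in 11 of 12 (91.7%), with EED, the PRC2 subunit that binds trimethylated H3 lysine 27, at -0.76 (SE 0.088), SUZ12 at -0.32 (SE 0.0651), and the cofactor JARID2 higher at 0.38 (SE 0.0726). Other histone methylation genes were lower in 14 of 15 (93.3%), among them WDR5 (log2 change -0.36, SE 0.0596) and ASH2L (log2 change -0.28, SE 0.0656), core subunits of the KMT2 complexes. HR, a demethylase gene of the hair follicle, fell furthest, from 233, 241 and 238 to 29.9, 47.7 and 52.6 (log2 change -2.47, SE 0.211). Remodeler partners were lower in 12 of 14 (85.7%). INO80, the ATPase of its complex, went from 1157, 1114 and 1108 to 507, 497 and 589 (log2 change -1.09, SE 0.0794), and INO80B, at few counts, was higher (log2 change 1.18, SE 0.316). Acetylation and deacetylation partners were the most mixed of these lists, 12 lower (66.7%) and 6 higher: SAP30, a SIN3 complex subunit, rose from 484, 467 and 497 to 978, 1077 and 1264 (log2 change 1.19, SE 0.0941), and RCOR2, of the CoREST family, fell from 43.9, 39.4 and 34.6 to 3.73, 3.87 and 6.72 (log2 change -2.83, SE 0.317). DNA methylation and heterochromatin partners were lower in 8 of 9 (88.9%), with UHRF1, the cofactor of DNMT1, at -0.73 (SE 0.155). Readers and scaffold proteins were lower in 8 of 10 (80%).

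Markers of proliferation moved beside these genes. Of 27, 10 were listed, 8 lower (80%, against 52.2% of all listed genes) and 2 higher, and their median was -0.50 on the log2 scale. Their summed scaled count was 10821 to 11410 in sh-Control, and 10505, 10438 and 7492 in sh-METTL3 replicates 1, 2 and 3. Replicates 1 and 2 thus lay just below the lowest control and replicate 3 far below it: the mean went from 11122 in sh-Control to 9479 in sh-METTL3, or to 10472 without replicate 3. The replication genes PCNA (log2 change -0.44, SE 0.101) and MCM2 (log2 change -0.57, SE 0.13) were lower, while CCNB1 (log2 change 0.71, SE 0.126), a cyclin of mitosis, and CCNE1 (log2 change 0.58, SE 0.115) were higher. Their part in the values of HMGA1, DNMT1, UHRF1 or the histone genes was not tested. Of the other cell type lists, 2 of 5 fibroblast markers (COL1A1 and THY1) and 2 of 5 leukocyte markers (CD14 and ITGAM) were listed and lower, 1 of 3 neuron markers (SYT1) was listed and higher, and 0 of 3 endothelium markers were listed. Their summed scaled count in sh-Control and sh-METTL3 was 6999 to 8025 and 1685 to 2146 for the fibroblast markers, 102 to 122 and 6.72 to 17.7 for the leukocyte markers, and 168 to 222 and 501 to 524 for SYT1. THY1 lies on chromosome 11, and 97.5% of its 40 nearest listed genes were lower. The leukocyte markers rest on few reads, CD14 having means of 25.3 in sh-Control and 1.31 in sh-METTL3. A change of cell type was not tested.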

How the data were processed

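The authors deposited 1 table whose library columns hold a signal, the gene read count divided by a size factor for the library. Dividing each signal by the value of 1 read gave whole reads (within 0.1) for 100% of values in all 6 libraries. The submitters' processing notes name HISAT2 2.0.5 and hg38, and all 93 members match GENCODE release 29 in start and end. The study's methods name Cufflinks with RefSeq, which the table does not match. The read counter and strand setting are not given in the sources used here. The authors also deposited group means, log2 fold changes, p-values and adjusted p-values, which were not used.

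limma 3.58.1 (R 4.3.3) was fitted with an intensity trend to log2(signal + 1) for all 7758 genes, without covariates, two-sided, with Benjamini-Hochberg adjustment and a threshold of 0.05. A fold change on this scale understates that of low genes. Other settings were edgeR 4.0.16 (quasi-likelihood, recovered reads, TMM or RLE factors), the Wald test of DESeq2 1.42.0, a pseudocount of 0.1, a minimum mean of 50, adjustment over 25000 tests, a replicate block and leaving out each library. A further one, edgeR with the authors' size factors, was chosen after seeing the data. The fits were tested on simulated data. Named genes were METTL3, all histone genes, members past a doubling or halving with a mean of at least 50 in the higher group, the member with the highest level per kb in each role, and other chromatin factors past a doubling or halving. All further names were chosen after their values were seen. Members and lists were chosen with earlier results of these data known. Same-numbered libraries did not deviate together (correlations 0.00361, 0.0193 and -0.015). The labels do not say whether libraries of 1 number were handled together, and these correlations cannot decide it. Columns without a sample numbered 0. Single results for some members are not reported here.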

Additional observations from a re-analysis of the deposited data

How the results depend on the processing

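Counts of called members kept within 1.5 times under all 14 alternatives, with 31 to 33 higher and 58 to 60 lower when 1 library was left out, 33 and 47 with RLE factors, and 33 and 42 in DESeq2. Of all listed genes, 47.7% were higher and 43% lower with RLE factors, and 47.7% and 41.2% in DESeq2. Of the single-member results, 41 over 20 genes missed the threshold and 1244 did not, and 0 changed direction. The replicate block called 33 members higher and 60 lower, as without it, and 7750 listed genes. Whether the numbers pair the libraries is not given in the labels. Over 6 genes, the histone median log2 fold change of -0.0453 is no stable value: it was -0.0108 with TMM factors, 0.0699 with RLE factors and 0.0707 in DESeq2, and -0.144 to 0.0144 without 1 library, turning positive without sh-Control replicate 1. The median of the other members, -0.28, was -0.23 with TMM factors and -0.15 with RLE factors and in DESeq2, and -0.282 to -0.265 without 1 library. METTL3 was at -0.17 with RLE factors (adjusted p = 0.0881) and in DESeq2 (adjusted p = 0.107). RLE and TMM factors were estimated on listed genes alone, which had all been called by the authors. Adjusting over 25000 tests left 7554 of 7758 listed genes called. Genes with few reads, such as PRDM6, PHF21B and HIST1H2BN, are limited by depth, and library depth itself is unknown.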

Other observations

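Genes that carry a histone or modifier stem but are not annotated as protein-coding stood outside the members. The antisense gene H1FX-AS1 rose while H1FX fell: it had 32.7, 28.8 and 31.8 scaled counts in sh-Control and 95.2, 85.1 and 68.3 in sh-METTL3, a log2 fold change of 1.37 (SE 0.205) by limma. KMT2E-AS1, named as antisense to KMT2E, had 34.3, 23.1 and 24.3 and 75.6, 81.2 and 57.1 (log2 change 1.36, SE 0.241), where KMT2E was slightly lower. The strand setting of the counting is not given in the sources used here, so reads on bases that both genes of a pair share cannot be assigned to 1 of them. HIST2H2BC and HIST2H2BD of chromosome 1, which carry a histone stem but are not annotated as protein-coding, were higher. HIST2H2BC went from 159.5, 129 and 186 to 206, 244 and 268 (log2 change 0.60, SE 0.161). HIST2H2BD went from 19.1, 34.6 and 26.2 to 55, 42.5 and 57.1 (log2 change 0.95, SE 0.266). They are near copies of protein-coding H2B genes, and their reads are uncertain for that reason. Their spans also overlap on opposite strands, so they may not be separate observations.

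The listed pseudogenes of HMGB1 and KATNBL1 were lower, as those genes were. HMGB1P5 (log2 change -0.45, SE 0.16) and HMGB1P6 (log2 change -0.42, SE 0.119) lay close to HMGB1 (log2 change -0.45, SE 0.0923). In each of these sh-METTL3 replicate 3 was the lowest library, with HMGB1P5 at 390, 467 and 277 in sh-METTL3, so the near-equal values rest partly on that library. KATNBL1P6, at 15.6 scaled counts in sh-Control, was at -1.61 (SE 0.359) beside KATNBL1 at -1.11 (SE 0.0988). HMGN2P46 went from 56.6, 79.7 and 66.4 to 25.2, 20.6 and 17.9 (log2 change -1.62, SE 0.236). It lies on chromosome 15, and 85% of its 40 nearest listed genes were lower. The part of a chromosome region in its values was not tested. HMGN2 itself was not analysed here. Whether these rows hold reads of the parent mRNA was not tested.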
